A study of Mus musculus with 6 samples.

Results

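Atoh1, Spdef, Gfi1, Neurog3, Neurod1, Insm1, Foxa1, Foxa2, Creb3l1 and Sox4 are transcription factor genes of the secretory lineages of the gut. These 10 genes were taken by symbol from the deposited table of 46078 genes, and all 10 were found and had enough counts to be tested. RNA was measured in sorted epithelial cells of the small intestine (the proximal part, per the series' design) from aged and young C57BL/6JRj mice, an inbred strain, with 3 libraries per age. The aged mice were 20 to 22 months old and the young mice 2 to 3 months old. All were untreated, and the cells were sorted as EpCam-positive and CD45-negative, a sort meant to keep epithelial cells and leave out leukocytes. The labels tie no library to a mouse. With 3 mice per age in the series' design the libraries were taken as 1 per mouse, and if that does not hold the p-values measure only the spread between these libraries.

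The lining of the small intestine is renewed from crypt stem cells, whose daughters become either absorptive cells or secretory cells. Atoh1, a basic helix-loop-helix factor, is needed for the secretory choice in the mouse gut, and Notch signalling, through Hes1, holds it down in the neighbouring cells. Downstream of Atoh1, Gfi1 and Spdef are known for goblet and Paneth cells, the makers of mucus and of antimicrobial proteins. Neurog3 opens the way to the hormone-making enteroendocrine cells, where Neurod1 and Insm1 act after it.

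None of the 10 factors differed between aged and young epithelium after adjustment over all genes. The largest differences were in Spdef and Atoh1, which were lower in aged libraries at an unadjusted p below 0.05. The enteroendocrine factors Neurog3, Neurod1 and Insm1 lay within 0.1 of 0 on the log2 scale. The products of goblet, Paneth and enteroendocrine cells included called genes, all lower in aged mice, so the factors were also set against the products of their lineages.

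The DNA before the start sites of 4 members is given. Atoh1 and Spdef were chosen for their alike profiles over the libraries. Neurog3 and Foxa1 were chosen because their windows carry letters that factors of their own families are known to bind, so these matches are no result. A link between letters and profiles was not tested. Each window is the 250 bases before the start in RefSeq (GRCm38.p6), read 5′ to 3′ on the gene's strand. Capitals mark matches to any of 7 motifs on either strand, namely CAGCTG and CAGATG (E-boxes of factors like Atoh1 and Neurog3), CACNAG (the N-box of Hes factors), TGTTTAC (forkhead), TGACGTG (the CREB3-like family), ACAAAG (Sox) and AAATCA (Gfi1). The windows are chr6:64728875-64729124 on the plus strand for Atoh1, chr17:27728952-27729201 on the minus strand for Spdef, chr10:62132840-62133089 on the plus strand for Neurog3 and chr12:57546112-57546361 on the minus strand for Foxa1.
Atoh1: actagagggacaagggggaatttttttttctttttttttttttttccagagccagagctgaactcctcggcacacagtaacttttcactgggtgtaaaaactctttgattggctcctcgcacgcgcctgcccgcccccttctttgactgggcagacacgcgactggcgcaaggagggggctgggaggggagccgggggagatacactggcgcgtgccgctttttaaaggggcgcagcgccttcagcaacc
Spdef: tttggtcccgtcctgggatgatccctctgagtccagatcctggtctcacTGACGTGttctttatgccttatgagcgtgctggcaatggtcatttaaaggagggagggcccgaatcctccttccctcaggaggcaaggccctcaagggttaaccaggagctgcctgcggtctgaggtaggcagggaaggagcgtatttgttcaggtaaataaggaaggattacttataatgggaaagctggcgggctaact
Neurog3: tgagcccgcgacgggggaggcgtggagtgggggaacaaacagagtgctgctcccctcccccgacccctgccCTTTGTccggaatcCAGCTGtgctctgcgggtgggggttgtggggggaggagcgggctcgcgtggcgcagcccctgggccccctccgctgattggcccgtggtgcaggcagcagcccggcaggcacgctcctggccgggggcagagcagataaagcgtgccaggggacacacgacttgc
Foxa1: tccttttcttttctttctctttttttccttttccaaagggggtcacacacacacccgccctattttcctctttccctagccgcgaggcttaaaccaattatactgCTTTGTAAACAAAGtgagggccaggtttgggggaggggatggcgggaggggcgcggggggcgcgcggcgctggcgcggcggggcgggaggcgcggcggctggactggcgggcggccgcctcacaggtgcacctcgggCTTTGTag

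The Atoh1 window holds none of the 7 motifs. The Spdef window holds TGACGTG, from 201 to 195 bases before the start, letters found in 1.65% of the 32851 promoter windows of the same length. The Neurog3 window holds CAGCTG from 165 to 160 bases before the start, which 13% of all windows hold, and the reverse complement of ACAAAG, which 16.5% hold on either strand. In the Foxa1 window the reverse complement of TGTTTAC (3.17% of all windows hold the motif) overlaps a Sox match on each side, and a further Sox match lies 8 to 3 bases before the RefSeq start. The GENCODE annotation places Foxa1 at 57540628 to 57546916 on the minus strand. This window therefore lies inside the gene there, after the GENCODE start. Of the 8 members with a window in RefSeq, ACAAAG was found in 3 (Neurog3, Foxa1 and Foxa2, the last from 171 to 166 bases before 1 of its starts), CAGCTG in Neurog3 and Sox4, CACNAG in Foxa2 and Sox4 (36.7% of all windows) and AAATCA in Foxa2 (12.4%), and CAGATG in 0 (14.4%). Such matches describe the letters and show no binding.

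The 6 libraries held between 41479573 and 58989166 counts, and the members between 294 and 6985 counts in a library, so that counting error was small for all 10. Levels are given as CPM, in which counts are divided by library totals adjusted with TMM factors. Calls at an adjusted p below 0.05 (edgeR's quasi-likelihood test) covered 93 genes higher and 117 genes lower in aged mice, of 14923. Aged replicate 3 and young replicate 2 stood apart from the other libraries on the second principal component (22.4% of the variance, at 21.8 and -34.8). On the first component (45.6%), which set the ages apart, they were the libraries of their age nearest to the other age (9.21 and -11.13). The other aged libraries lay at 29.31 and 31.68 there, and the other young libraries at -27.81 and -31.26. Leaving out both thus kept the libraries that lay furthest apart by age, and 594 genes were then called higher and 587 lower. The 10 epithelial marker genes were all tested with 0 called, with Lgals4 at 2787 ± 196.0 CPM in aged and 2935 ± 275.6 CPM in young libraries and Krt19 at 2677 ± 101.3 CPM and 2731 ± 230.0 CPM (SD, n = 3 each).

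The comparison of aged with young epithelium asks how the factors that set secretory cell fate differ with age. By edgeR's quasi-likelihood test 0 of the 10 members passed an adjusted p of 0.05, where 1.41% of all genes tested did. In each direction the count of members was also 0, against 0.623% of all genes called higher and 0.784% called lower. DESeq2 and limma-voom also called 0. At an unadjusted p below 0.05 the count was 2 of 10 with each of the 3 tools, both lower in aged mice, where edgeR gave 9.23% of all genes in either direction and 5.33% lower. The median log2 fold change was -0.07 for the members and 0.0065 for all genes tested. Of the 10, 8 had a log2 fold change below 0, as did 48.2% of all genes, and 5 lay within 0.1 of 0, as did 49.4%. The age groups overlapped in all 10 members. They did not overlap in 13.8% of all genes, with aged above young in 6.3% and aged below young in 7.49%.

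**Figure D1:**
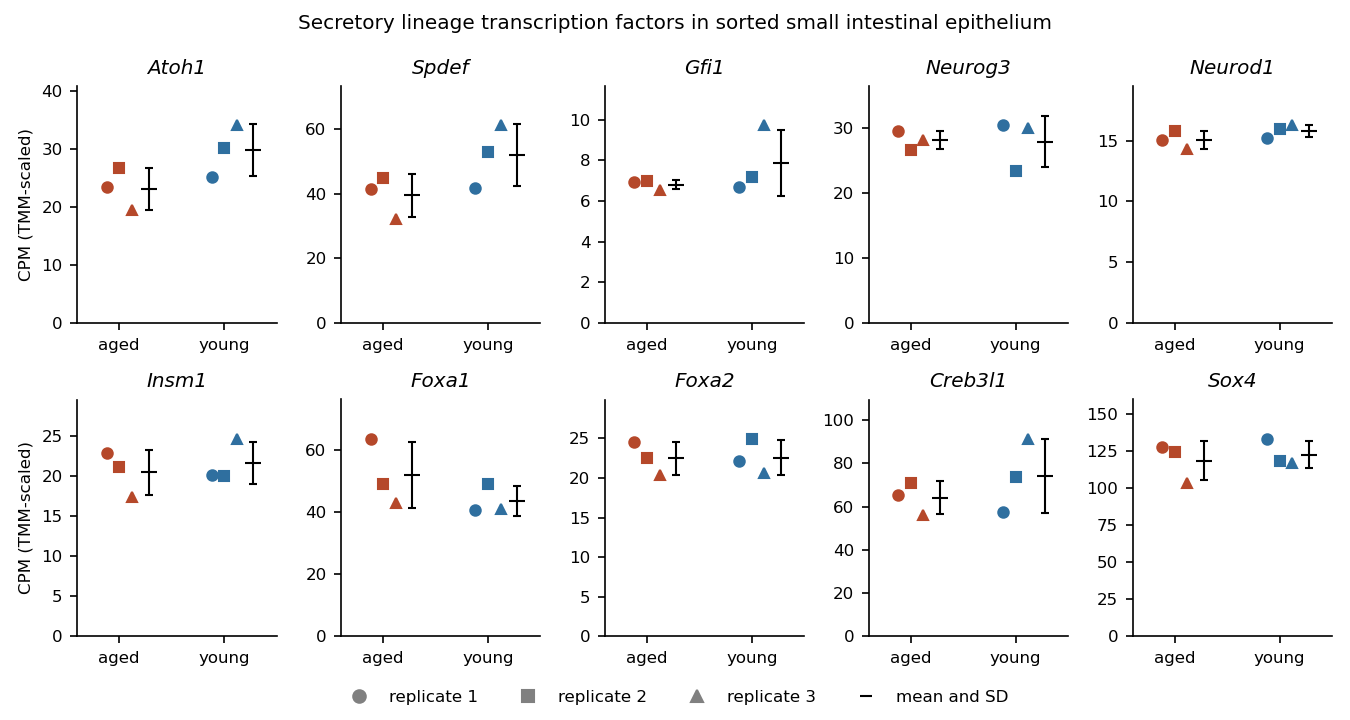
CPM (TMM-scaled, vertical axes from 0) of the 10 transcription factors in the 3 aged and the 3 young libraries, with a symbol per replicate and the mean and SD beside them. The age groups overlap in every panel, and the triangle of aged replicate 3 is the lowest point for Atoh1, Spdef and 6 other factors.

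Atoh1, which starts the secretory programme, lies on chromosome 6 (64729125 to 64731245, GRCm38) in a single exon. It stood at 23.5, 26.7 and 19.5 CPM in the aged libraries, against 25.2, 30.3 and 34.1 CPM in the young libraries. The highest aged library thus lay above the lowest young library, and the spread within each group reached over part of the difference. The means were 23.2 ± 3.61 CPM in aged and 29.8 ± 4.48 CPM in young libraries (SD, n = 3 each). The log2 fold change was -0.36 ± 0.14 (SE), with an unadjusted p of 0.0315 and an adjusted p of 0.437 by edgeR's quasi-likelihood test. The 95% interval of the fold, without adjustment for the number of genes, was 0.621 to 0.973. In bulk RNA of this kind, fewer cells of a type and less RNA per cell cannot be told apart.

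Spdef (chromosome 17, 27714352 to 27728955), an ETS factor of goblet and Paneth cell maturation, had the same order of libraries as Atoh1 at the top and the bottom. It stood at 41.4, 45.0 and 32.1 CPM in the aged libraries, against 41.8, 53.0 and 61.1 CPM in the young libraries. Young replicate 1 fell below aged replicate 2, so the groups overlapped, and aged replicate 3 was the lowest of all. The means were 39.5 ± 6.66 CPM in aged and 52.0 ± 9.69 CPM in young libraries (SD, n = 3 each). The log2 fold change was -0.40 ± 0.16 (SE), with an unadjusted p of 0.0364 and an adjusted p of 0.467 by edgeR, and a fold between 0.590 and 0.978 (95% interval).

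Creb3l1 (chromosome 2, 91982328 to 92024502), a factor held in the membrane of the endoplasmic reticulum and known for the maturation of goblet cells, stood at 65.4, 71.0 and 56.1 CPM in the aged libraries, against 57.3, 73.9 and 91.3 CPM in the young libraries. The young libraries spanned a wider range than the aged ones and enclosed 2 of the 3. Its log2 fold change was -0.21 ± 0.16 (SE, edgeR adjusted p = 0.821) and -0.03 without young replicate 3.

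Gfi1 (chromosome 5, 107716657 to 107726036), a zinc-finger repressor that favours goblet and Paneth cells over enteroendocrine cells in mice, had the fewest counts of the members. It stood at 6.93, 6.97 and 6.54 CPM in the aged libraries, against 6.69, 7.17 and 9.72 CPM in the young libraries. Only young replicate 3 stood clear of the other 5. The log2 fold change was -0.20 ± 0.16 (SE, edgeR adjusted p = 0.824), and without young replicate 3 it was -0.03.

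Neurog3 (chromosome 10, 62133090 to 62134763), the factor that starts the enteroendocrine programme, stood at 29.5, 26.6 and 28.1 CPM in the aged libraries, against 30.3, 23.3 and 29.98 CPM in the young libraries. The aged libraries lay within the young range, whose low end was young replicate 2. The means were 28.1 ± 1.45 CPM in aged and 27.9 ± 3.98 CPM in young libraries (SD, n = 3 each), a log2 fold change of 0.01 ± 0.11 (SE, edgeR adjusted p = 0.989) with a fold between 0.843 and 1.21 (95% interval). It was -0.11 without young replicate 2. Neurog3 shares 273 exonic bases with Fam241b on the other strand, which held 1018 to 1334 counts a library, and since the sources used here do not give the strand setting of the counting, a part of the counts of either gene is uncertain.

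Neurod1 (chromosome 2, 79452521 to 79456751), a helix-loop-helix factor that acts after Neurog3, was the steadiest member. It stood at 15.0, 15.8 and 14.3 CPM in the aged libraries, against 15.2, 15.9 and 16.2 CPM in the young libraries. All 6 values lay within 0.18 on the log2 scale, where Spdef spanned 0.93 and Atoh1 0.81. Its log2 fold change was -0.07 ± 0.10 (SE, edgeR adjusted p = 0.905), with a fold between 0.820 and 1.11 (95% interval). Neurod1 shares 201 exonic bases with Cerkl on the same strand, which held 35 to 68 counts a library, and reads from these bases cannot be assigned by strand.

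Insm1 (chromosome 2, 146221921 to 146225020), a zinc-finger factor of enteroendocrine differentiation, stood at 23.0, 21.1 and 17.5 CPM in the aged libraries, against 20.2, 20.1 and 24.7 CPM in the young libraries. Aged replicate 3 was the lowest and young replicate 3 the highest, and the other 4 lay between. The log2 fold change was -0.08 ± 0.13 (SE, edgeR adjusted p = 0.932), and its sign changed without either of these libraries, where it was 0.02.

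The forkhead factors Foxa1 and Foxa2 open chromatin and take part in goblet and enteroendocrine differentiation in the mouse gut. Foxa1 (chromosome 12, 57540628 to 57546916) stood at 63.6, 49.2 and 43.0 CPM in the aged libraries, against 40.7, 49.1 and 40.95 CPM in the young libraries. It was the only member other than Neurog3 with a log2 fold change above 0, at 0.25 ± 0.14 (SE, edgeR adjusted p = 0.708). Aged replicate 1 carried much of this, since the value was 0.08 without it. Without young replicate 2 and aged replicate 3 it was 0.46 (edgeR adjusted p = 0.0577, the lowest that any member reached in 16 alternatives, where the highest for Foxa1 was 0.999). That fit left out the library of each age nearest to the other age on the first principal component. Foxa2 (chromosome 2, 148042877 to 148046969) stood at 24.5, 22.6 and 20.4 CPM in the aged libraries, against 22.2, 24.9 and 20.6 CPM in the young libraries, 2 groups of nearly the same range (log2 fold change -0.0062 ± 0.11, SE, edgeR adjusted p = 0.995). That sign changed without aged replicate 3 or young replicate 2 (0.06 in each case).

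Sox4 (chromosome 13, 28948919 to 28953713), an HMG-box factor of the enteroendocrine and tuft lineages in mice, had the most counts of the 10. It stood at 127.6, 124.0 and 103.4 CPM in the aged libraries, against 133.0, 118.1 and 116.5 CPM in the young libraries. The log2 fold change was -0.05 ± 0.10 (SE, edgeR adjusted p = 0.945), with a fold between 0.831 and 1.12 (95% interval), and its sign changed without aged replicate 3 (0.03) or young replicate 1 (0.01). Sox4 shares 2616 of its 4795 exonic bases with the long noncoding RNA gene Gm26735 on the other strand, which held 5 to 23 counts. With the strand setting of the counting not given, a part of the counts of Sox4 is also uncertain.

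**Figure D2:**
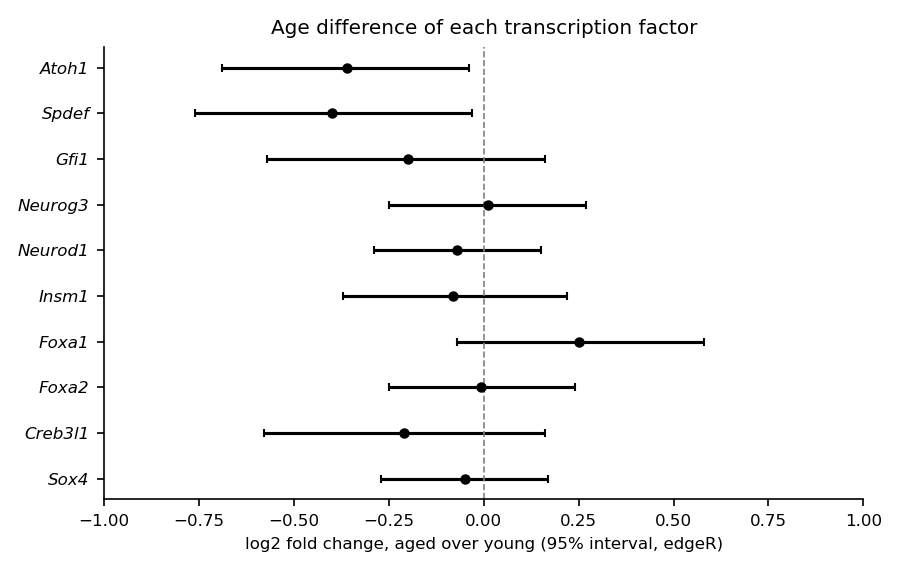
Log2 fold change of each factor, aged over young, with its 95% interval from edgeR, not adjusted for the number of genes. The intervals of Atoh1 (-0.69 to -0.04) and Spdef (-0.76 to -0.03) lie below 0, and those of the other 8 include 0.

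Levels of different genes were compared per kilobase of exon (CPM per kilobase, mean of 6 libraries). Creb3l1 (26.6) and Sox4 (25.1) came first, followed by Spdef (19.8), Neurog3 (16.7), Foxa1 (14.3), Atoh1 (12.5) and Foxa2 (9.51). Sox4 was divided by all its exonic bases, those shared with Gm26735 included, so its place in this order is uncertain. From Creb3l1 down to Foxa2 the range of each factor over the 6 libraries overlapped that of the next. Insm1 (6.80) and Neurod1 (5.66) overlapped each other and lay below Foxa2, and Gfi1 (2.30) lay below all others. The span from Creb3l1 to Gfi1 was 11.5-fold, much wider than the age difference of any factor.

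**Figure D3:**
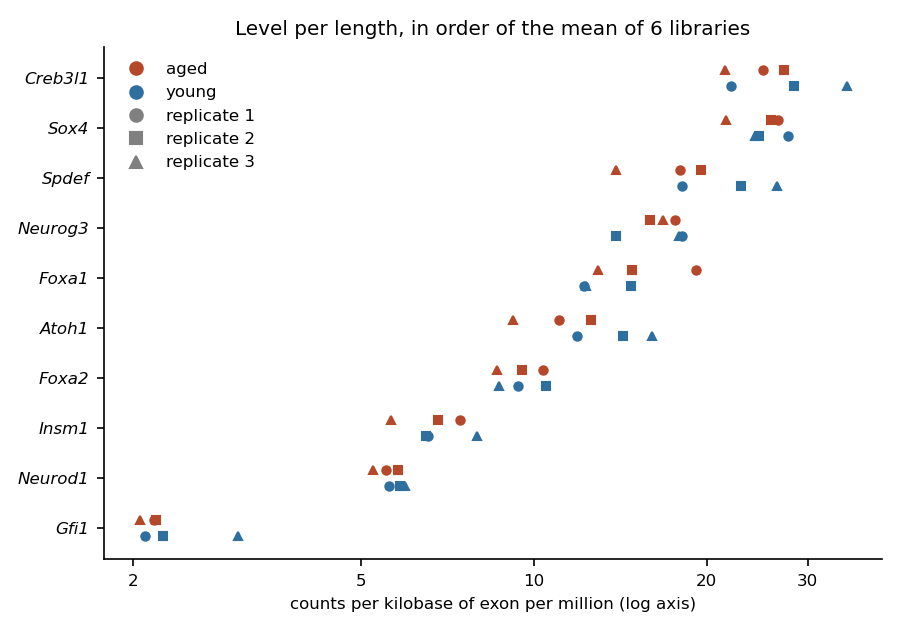
CPM per kilobase of exon (log axis) in the aged and the young libraries, with factors in order of their mean over 6 libraries. The points of neighbouring factors overlap except below Foxa2 (9.51) and below Neurod1 (5.66).

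The libraries did not deviate alike for all factors, a pattern that was looked at after the values were seen. Aged replicate 3 was the lowest of the 6 libraries for 8 of the 10 members, all but Neurog3 and Foxa1, where it was the lowest for 15.1% of all genes tested. Young replicate 3 was the highest for 6 members (Spdef, Neurod1, Creb3l1, Insm1, Gfi1 and Atoh1), where it was the highest for 19.6% of all genes. In aged replicate 3 Atoh1 lay 0.42 and Spdef 0.48 below its own mean on the log2 scale, and Creb3l1 0.28 below, while Neurog3 lay 0.01 above. In young replicate 3 Atoh1, Spdef, Gfi1 and Creb3l1 lay between 0.38 and 0.45 above their means, against 0.11 for Neurog3 and 0.08 for Neurod1. Leaving out aged replicate 3 brought Atoh1 to a log2 fold change of -0.26 and Spdef to -0.27, and leaving out young replicate 3 gave the same -0.26 and -0.27.

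**Figure D4:**
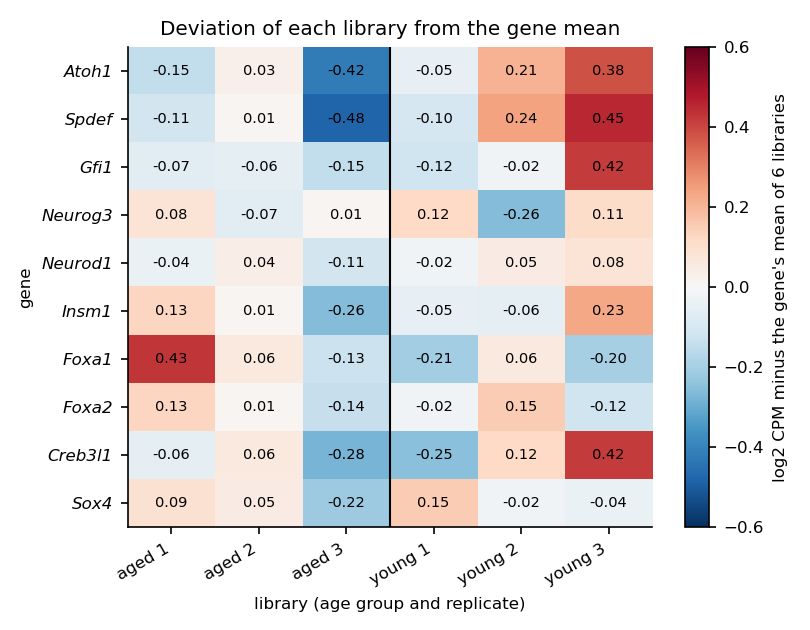
Log2 CPM of each factor in each library, minus the mean of that factor over the 6 libraries (colour and printed value, blue below and red above the mean), with aged libraries left and young libraries right of the line. Atoh1 and Spdef differ by at most 0.07 in any library, while Neurog3 runs from 0.12 in young replicate 1 to -0.26 in young replicate 2.

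Among the 9969 tested genes that averaged 5 CPM or more, the gene whose centred log2 CPM over the 6 libraries lay nearest to that of Atoh1 was Spdef, at a root mean square difference of 0.0460. Cracr2a (0.0771) and Tpsg1 (0.0788), a tryptase gene on the goblet product list, followed. Tpsg1 stood at 22.0 CPM in aged and 30.1 CPM in young libraries. For Neurog3 the nearest were Ttc23 (0.0269), Flot2 (0.0292) and Abhd12 (0.0308), 3 genes outside the lists of secretory cells. With 6 libraries such nearness describes these libraries only.

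Other transcription factors of the lineages, taken from lists, were measured beside the members. Of 19 tested enteroendocrine factors outside the members 0 passed (edgeR, adjusted p below 0.05), with 2 at an unadjusted p below 0.05 and a median log2 fold change of -0.05. Isl1, a homeobox factor of hormone cell subtypes named after its values were seen, was at 3.33 ± 0.521 CPM in aged and 5.52 ± 1.93 CPM in young libraries (SD, n = 3 each, edgeR adjusted p = 0.399). Without young replicate 2 Isl1 passed (log2 fold change -1.0, edgeR adjusted p = 0.0375). The most abundant on this list were Pdx1, a factor of the duodenum and pancreas, at 53.1 ± 9.56 CPM in aged and 44.4 ± 5.02 CPM in young libraries, and Tox3, at 34.9 ± 1.15 CPM and 32.4 ± 0.649 CPM.

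Of 18 tested goblet, Paneth and tuft cell factors outside the members 0 passed, with 3 at an unadjusted p below 0.05 and a median of -0.04 (edgeR). The 3, also named after their values were seen, were Foxa3, the third gene of the Foxa group (34.7 ± 2.67 CPM in aged and 42.6 ± 5.37 CPM in young libraries, edgeR adjusted p = 0.356), Creb3l4, a relative of Creb3l1 (17.0 ± 1.25 CPM and 23.9 ± 6.95 CPM), and Pou2f3, the tuft cell factor (4.06 ± 0.0445 CPM and 5.32 ± 0.645 CPM). The Foxa genes thus had log2 fold changes of 0.25 (Foxa1), -0.0062 (Foxa2) and -0.30 (Foxa3), and none passed. The most abundant of the list were Elf3 (1028 ± 46.3 CPM in aged and 978.2 ± 35.2 CPM in young libraries) and Ehf (240.1 ± 15.3 CPM and 225.3 ± 11.2 CPM), epithelial ETS factors.

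Of 21 tested genes of Notch signalling 0 passed, with 3 at an unadjusted p below 0.05 and a median log2 fold change of -0.05 (edgeR). These were Hey1 (log2 fold change -0.73) and Bend5 (-1.42), both under 1 CPM in every library, and Lfng, a modifier of Notch receptors, at 21.5 ± 0.610 CPM in aged and 25.2 ± 1.91 CPM in young libraries (edgeR adjusted p = 0.446), named after their values were seen. Hes1, the repressor of Atoh1, stood at 97.3 ± 8.47 CPM in aged and 105.9 ± 13.1 CPM in young libraries (log2 fold change -0.12 ± 0.10, SE). Dll1, a ligand that secretory precursors show to their neighbours, stood at 122.4 ± 14.0 CPM and 130.5 ± 7.35 CPM. The most abundant were Notch1 (200.4 ± 14.8 CPM in aged and 171.7 ± 36.3 CPM in young libraries) and Adam10 (140.9 ± 8.86 CPM and 137.3 ± 8.07 CPM), the protease that cuts Notch receptors.

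The products of the lineages gave the background against which the factors were read. Of all genes tested, 0.784% were called lower, and 9.23% had an unadjusted p below 0.05 in either direction (edgeR). Of 18 tested goblet cell products 3 were called lower in aged mice (edgeR), namely the phospholipase Pla2g10 (2.40 ± 0.127 CPM in aged and 5.72 ± 1.16 CPM in young libraries, edgeR adjusted p = 0.0144), Klk1 (log2 fold change -0.52, edgeR adjusted p = 0.0412) and Tff3 (-0.67, edgeR adjusted p = 0.0498). The list had a median of -0.46 with 12 of the 18 at an unadjusted p below 0.05 (edgeR). Its summed level was 15450 to 17180 CPM in aged and 18300 to 27620 CPM in young libraries. Of 15 tested Paneth cell products 5 were called lower, with the smallest adjusted p in Defa3 (log2 fold change -1.50, edgeR adjusted p = 0.00656), Clps (-1.03, edgeR adjusted p = 0.00923), which encodes the cofactor of pancreatic lipase, and Defa26 (-1.13, edgeR adjusted p = 0.0220), with a median of -0.90 and sums of 6578 to 7145 CPM in aged and 8852 to 16280 CPM in young libraries. Of the 15 Paneth products, 8 had an unadjusted p below 0.05 (edgeR). Defensin copies are near-identical, so counts of single copies are uncertain. Of 23 tested enteroendocrine products 3 were called lower, Scg3 (log2 fold change -1.22), Gip (-0.47) and Sst (-0.93), with a median of -0.03 and a mean of -0.37. Of the 23, 17 had a log2 fold change below 0 and 6 above. At an unadjusted p below 0.05 there were 12 (edgeR), all lower in aged mice except Tph1 (log2 fold change 0.21). The summed level of the enteroendocrine products was 3079, 2780 and 3155 CPM in the aged libraries, against 2557, 2764 and 3366 CPM in the young libraries, so that here the sums overlapped. Without aged replicate 1 or aged replicate 2 the goblet and enteroendocrine counts were 0 and the Paneth count 2, and without young replicate 3 the goblet count was 0 and the enteroendocrine count 1. The Paneth count was also 2 without aged replicate 3 or young replicate 1.

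Each factor was then set against its lineage, as its log2 CPM minus the mean log2 CPM of the tested products, in 7 pairs. An exact permutation test of 3 against 3 libraries cannot give a two-sided p below 0.10, so these differences are descriptions. Atoh1 over goblet products was -2.16, -2.35 and -2.28 in the aged libraries, against -2.30, -2.30 and -2.27 in the young libraries. The ratio was thus nearly level across all 6 libraries with this list, although Atoh1 itself spanned 0.81. Its means were -2.26 ± 0.10 in aged and -2.29 ± 0.02 in young libraries (SD, n = 3 each, exact permutation p = 0.800). Spdef over the same products averaged -1.50 ± 0.14 in aged and -1.50 ± 0.07 in young libraries (exact permutation p = 1.0), and Creb3l1 -0.79 ± 0.13 and -0.99 ± 0.13 (exact permutation p = 0.200). The age difference of Atoh1, 0.03, turned to -0.02 when aged replicate 1 was left out. That of Spdef turned to -0.08 when the same library was left out, and to -0.03 when young replicate 1 was. The goblet list includes Retnlb, named after its values were seen, at 6.08 CPM in aged replicate 2 and 0.135 to 0.408 CPM in every other library. Retnlb raised the product mean in aged replicate 2 and so lowered the ratios there, and ratios without it were not computed. When the products were summed before taking the log, the differences were 0.09 for Atoh1, 0.06 for Spdef and 0.27 for Creb3l1.

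Gfi1 over Paneth products was -3.30, -3.58 and -3.16 in the aged libraries, against -4.16, -3.75 and -4.13 in the young libraries. The groups did not overlap, and the ratio was 1.59-fold higher in aged libraries (difference 0.67, exact permutation p = 0.1, the smallest possible, and 0.233 adjusted over the 7 pairs). The difference was 0.57 to 0.80 in the fits without a single library. Gfi1 itself had overlapping groups, and the Paneth products had a median log2 fold change of -0.90, against -0.46 for the goblet products. Atoh1 and Spdef were not set against Paneth products, so these pairs do not set Gfi1 apart from them.

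Neurog3 over enteroendocrine products was 0.17, 0.18 and 0.13 in the aged libraries, against 0.03, -0.48 and -0.29 in the young libraries. The aged libraries lay above the young ones, a difference of 0.41 (exact permutation p = 0.1, adjusted over the 7 pairs 0.233). Neurod1 gave -0.74 ± 0.15 in aged and -1.05 ± 0.11 in young libraries, a difference of 0.31 (exact permutation p = 0.1), and Insm1 -0.30 ± 0.23 and -0.61 ± 0.07, a difference of 0.31 (exact permutation p = 0.200). These 3 differences turned to -0.04, -0.13 and -0.14 when the products were summed before taking the log, so no direction holds over both ways of counting the products. Most of that sum came from the granins, proteins of the secretory granule: Chgb stood at 1612 ± 113.1 CPM in aged and 1374 ± 235.6 CPM in young libraries (SD, n = 3 each), and Chga at 582.9 ± 10.5 CPM and 506.1 ± 87.1 CPM. Their log2 fold changes were 0.23 and 0.20, and neither passed (edgeR adjusted p = 0.662 and 0.690). These granins were named after their values were seen.

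**Figure D5:**
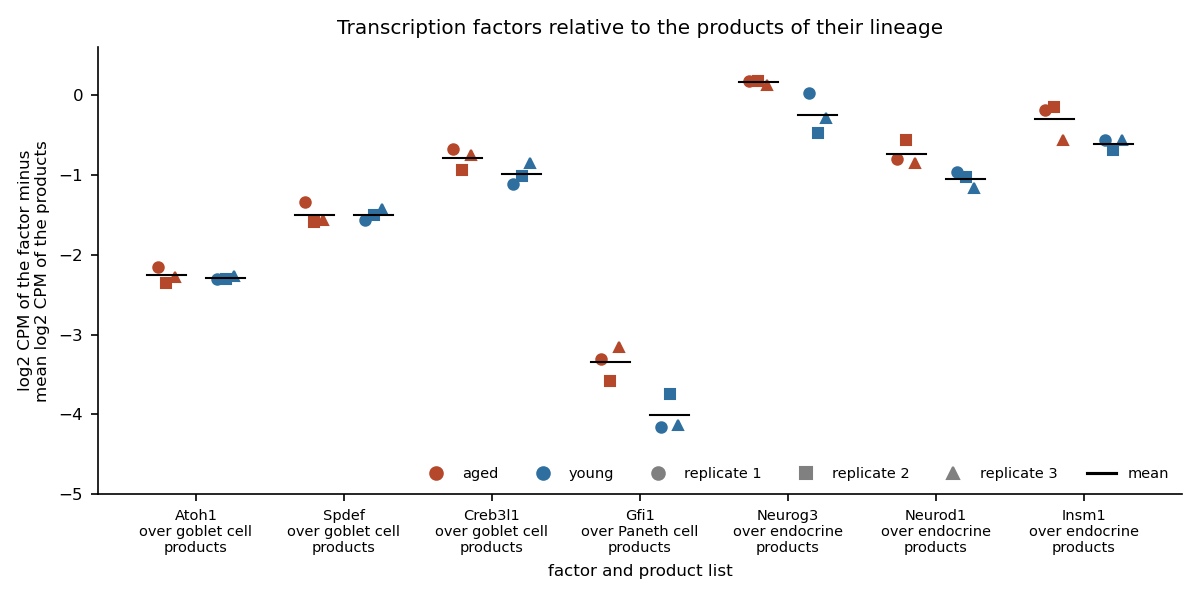
Log2 CPM of 7 factors minus the mean log2 CPM of the products of their lineage (vertical axis) in each aged and young library, with the group mean as a line. Atoh1 and Spdef over goblet products keep nearly the same level in both ages with this list, which includes Retnlb, a gene high in aged replicate 2 only. Gfi1 over Paneth products lies higher in all 3 aged libraries. These pairs have different product lists and are not compared with each other. The Neurog3 values are -0.48 to 0.03 in young and 0.13 to 0.18 in aged libraries, and their age difference turned to -0.04 with summed products.

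Markers of other cells and regions are given as values beside the factors, and their part in these results was not tested. Of 23 leukocyte markers 14 were tested and 2 were called higher (edgeR), Itgam (21.6 ± 1.18 CPM in aged and 12.6 ± 0.681 CPM in young libraries, edgeR adjusted p = 0.00726) and Itgae (3.40 ± 0.582 CPM and 1.16 ± 0.214 CPM, edgeR adjusted p = 0.0129). Of the 14, 11 had a log2 fold change above 0, and the median was 0.39. The summed level of the markers was 95.4 to 121.5 CPM in aged and 88.1 to 102.9 CPM in young libraries, and S100a8 and Cpa3 were at 0 in all. The count was 1 without aged replicate 1 or young replicate 3. Of 22 stromal, endothelial, neural and glial markers 6 were tested and 0 called (1 at an unadjusted p below 0.05, median -0.16), with sums of 12 to 12.9 CPM in aged and 15.0 to 15.96 CPM in young libraries and Lum, Sox10, Kdr and Cdh5 at 0 in all. Ret, at 6.98 ± 0.609 CPM in aged and 9.37 ± 1.29 CPM in young libraries, and Pdgfrb, at 1.89 ± 0.227 CPM and 2.48 ± 0.312 CPM, were the most abundant of them.

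Of 17 tested tuft cell products 0 passed (edgeR, 1 at an unadjusted p below 0.05, median -0.08), with Cd24a at 248.6 ± 14.2 CPM in aged and 259.6 ± 33.2 CPM in young libraries and Trpm5 at 14.8 ± 3.49 CPM and 18.2 ± 1.91 CPM. Of 16 stem and dividing cell markers 0 passed (0 at an unadjusted p below 0.05, median 0.04), with Olfm4 at 3970 ± 417.0 CPM in aged and 4276 ± 497.2 CPM in young libraries and Slc12a2 at 702.1 ± 32.5 CPM and 811.9 ± 137.5 CPM. Among 9 tested markers of the proximal small intestine (median -0.19) Trpv6, a calcium channel, was called lower (edgeR adjusted p = 0.00309). It had 0 counts in each aged library, which allows up to 0.0539 to 0.0662 CPM by counting error, against 93, 74 and 85 counts in the young libraries. Of 9 tested distal markers 0 passed (3 at an unadjusted p below 0.05, median -0.34), with Guca2b at 71.7 ± 13.2 CPM in aged and 96.6 ± 13.9 CPM in young libraries and Slc51a at 51.9 ± 14.7 CPM and 65.6 ± 11.4 CPM.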

How the data were processed

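For each of the 6 libraries the authors deposited unnormalised counts, seen from whole numbers and unequal totals. The library kit was a stranded one for poly(A) RNA, per the labels' protocols. The submitters' processing notes name GRCm38, STAR and featureCounts 1.6.4 among other tools, without role or order. The sources used here give neither the annotation release nor the strand setting.

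Low genes were removed with filterByExpr (edgeR 4.0.16, at a minimum count of 10), leaving 14923, and libraries were scaled with TMM factors. The test was edgeR's robust quasi-likelihood test with age as its term, in R 4.3.3, with Benjamini-Hochberg adjustment over all genes tested and a threshold of 0.05. It was tested on simulated counts. The SE was the log2 fold change over the square root of F. Positions, exon lengths and overlaps came from GENCODE M21 (GRCm38), where 45229 of 46078 IDs were found. Ratios to products were taken on log2 CPM (prior count 2). Depth was 41479573 to 58989166 counts a library. A count of 0 allows up to 3 counts. This limit covers counting error only, and PCR copies were not marked by molecular identifiers. No 2 libraries of a group agreed within sampling noise (smallest chi-square per gene 25.0, where noise gives about 1).

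Named genes were all members, up to 3 called genes per list by adjusted p or otherwise the 2 most abundant, and the 3 genes nearest to Atoh1 and to Neurog3, without Gm, Rik and unnamed symbols. Replicates are numbered in record order. The members, lists and alternatives were chosen with earlier results of these data known. Of the list genes, Defa30 and Mln were not used here. A further list gene is not reported here. Alternatives were DESeq2 1.42.0, limma 3.58.1 (voom), other scaling and filters, no robust estimation, 1 surrogate variable (sva 3.50.0) and leaving out libraries.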

Additional observations from a re-analysis of the deposited data

How the results depend on the processing

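The count of called members was 0 in each direction under all 16 alternatives, the fits without a single library included (0 to 0). Over these alternatives the log2 fold change lay between -0.48 and -0.25 for Atoh1 (adjusted p 0.223 to 0.852) and between -0.53 and -0.26 for Spdef (0.250 to 0.883). Neurod1, Gfi1, Creb3l1 and Foxa1 also kept their sign. Neurog3 turned to -0.0032 with upper quartile scaling and -0.11 without young replicate 2 and aged replicate 3, a fit in which Foxa2 turned to 0.13 and Sox4 to 0.0067. Without a single library Neurog3 ran from -0.11 to 0.08, Insm1 from -0.17 to 0.02, Foxa2 from -0.07 to 0.06 and Sox4 from -0.11 to 0.03. The differences over products ran from -0.02 to 0.08 for Atoh1 and from -0.08 to 0.05 for Spdef without a single library, and those of Neurog3, Neurod1 and Insm1 turned to -0.04, -0.13 and -0.14 with summed products. The cause of these changes was not tested.

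Over all genes, DESeq2 called 206 higher and 276 lower, the fit without a filter 168 and 245, the fit without young replicate 2 and aged replicate 3 594 and 587, and the filter of 1 CPM in 3 libraries 67 lower. Without a single library the counts ran from 35 to 135 higher and from 30 to 135 lower. Goblet products called lower numbered 6 with DESeq2, 1 with limma-voom, 1 with the filter of 1 CPM and 6 with 1 surrogate variable (0 to 4 without a single library). Paneth products numbered 8 with DESeq2 and 2 without a filter (2 to 6), and enteroendocrine products 6 with DESeq2, 5 with 1 surrogate variable and 6 without both libraries that stood apart (0 to 4). Enteroendocrine factors called lower numbered 2 without both of these libraries (0 to 1 without a single library). Notch genes called lower numbered 1 without a filter (Heyl), 1 with 1 surrogate variable (Jag2) and 2 without both libraries (Heyl and Bend5), where 1 was higher (Notch1), and 0 to 1 without a single library. Without both libraries 5 leukocyte markers (1 to 2 without a single library) and 1 distal marker were higher, and 3 proximal markers and 1 stem or dividing cell marker (0 to 1) lower. Proximal markers called lower numbered 3 with DESeq2 and 2 without a filter (1 to 2), and 1 distal marker was higher with DESeq2. No paired analysis was made, since the libraries were taken as 1 per mouse and the labels give no pairs of aged and young mice. With 3 libraries per age, differences of the size seen in Atoh1 and Spdef did not pass adjustment over all genes.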

Other observations

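Neurog3 relative to Atoh1, a pair chosen after the values were seen, stood at 0.33, 0.00 and 0.53 on the log2 CPM scale in the aged libraries, against 0.27, -0.38 and -0.18 in the young libraries. The means were 0.29 ± 0.27 in aged and -0.10 ± 0.33 in young libraries (SD, n = 3 each), and the groups overlapped, with a difference of 0.38 (two-sided exact permutation p = 0.2, smallest possible 0.1).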
